A study of Mus musculus with 8 samples.

Results

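The genes described here are 53 mouse genes whose products build or assemble the axoneme, the microtubule core of cilia and of the sperm flagellum. They comprise axonemal dynein chains, dynein assembly factors, radial spoke proteins, the nexin-dynein regulatory complex, central pair proteins and tektins. They were taken by name from the 24651 gene symbols obtained from RNA-seq of testes at postnatal day 12. The study compared 4 libraries labelled wild type with 4 labelled *Morc2b*-/-, each from a pair of testes of a day 12 male on a mixed background. In *Morc2b*-/- mice the coding exon of *Morc2b* is replaced with a PGKNeo cassette in the germline, so every cell carries the deletion, and the mice descend from a single targeted clone of V6.5 embryonic stem cells (C57BL/6 x 129S4/SvJae). All animals were offspring of *Morc2b*+/- intercrosses. The control samples are labelled wild type, whereas the design text of the deposited series names them *Morc2b*+/-. They are called wild type here. No allele or agent other than the *Morc2b* allele is named for either group. Nothing states whether the libraries of a group came from different litters or days, so p-values measure only the spread between these samples.

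The axoneme consists of microtubule doublets arranged around a central pair. Outer and inner dynein arms on the doublets slide them against each other, radial spokes pass signals between the central pair and the arms, and the nexin-dynein regulatory complex links neighbouring doublets. Dynein arms are assembled in the cytoplasm with the help of dedicated factors before they are loaded. In male germ cells, transcription of many axonemal genes begins in meiotic spermatocytes, whereas the flagellum itself is built later, in spermatids.

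Reads per library that fell on a listed transcript numbered 27144796 to 36941755. *Morc2b* was examined first, as a check of the labels. It had 428, 443, 24 and 1272 counts in wild type 1 to 4, and 10, 10, 115 and 2 counts in *Morc2b*-/- 1 to 4. The library labelled wild type 3 therefore had fewer *Morc2b* reads than the library labelled *Morc2b*-/- 3, the reverse of the order of the labels. The other wild type libraries had 428 to 1272 counts, and the other *Morc2b*-/- libraries 2 to 10. The paper first detected *Morc2b* at day 12, at a low level. What set wild type 3 and *Morc2b*-/- 3 apart, and whether their labels are right, was not tested. The main counts are given with and without these libraries. Counts of exon 1 of *Morc2b*, which the deletion retains in all *Morc2b*-/- libraries alike, were not separated from those of exon 2. The labelled tissue was checked with marker genes. Sertoli cell markers summed to between 1697 and 2021 CPM (counts scaled to a common library size with edgeR's TMM factors) and leptotene and zygotene spermatocyte markers to between 2475 and 4083 CPM over the 8 libraries. Other libraries also stood apart. Pachytene markers were highest in wild type 4, at 562.7 CPM, against 155.4 to 320.8 CPM in the other wild type libraries and 158.7 to 342.7 CPM in *Morc2b*-/- libraries. Spermatid markers reached 157.2 CPM in wild type 1 and 317.4 CPM in *Morc2b*-/- 3. They were at 19.3 and 36.5 CPM in *Morc2b*-/- 1 and 2, against 3.58 to 4.78 CPM in the other libraries. Epididymal markers reached 473.5 CPM in wild type 1, against 202.8 to 266.3 CPM elsewhere. *Wfdc10* alone gave 179.5 to 247.9 CPM of this sum in each library. Of the markers *Crisp1*, *Spink8* and *Ces5a*, wild type 1 had 3096, 4329 and 1705 counts and *Morc2b*-/- 2 had 212, 224 and 60, against 0 to 10 in the other libraries. The paper places the first round spermatids later than day 12 and found no spermatids in adult *Morc2b*-/- testes. Spermatid markers in wild type 1 and *Morc2b*-/- 3, and at lower levels in *Morc2b*-/- 1 and 2, are thus not those of the labelled stage. Epididymal markers are not those of the labelled tissue. The source of this RNA and its part in the axonemal values were not tested. The libraries are of whole tissue labelled testis, so fewer cells of a type and less RNA per cell cannot be told apart.

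Of the 53 genes, 47 have a listed transcript, 46 have at least 1 count, and 40 passed edgeR's filter on low counts and were tested. *Dnah3*, *Dnah7b*, *Dnah12*, *Dnah14*, *Ccdc40* and *Rsph10b* were matched to no listed transcript and were not analysed here. *Dnal1*, *Rsph4a*, *Rsph6a*, *Rsph14*, *Cfap70*, *Tekt1* and *Tekt5* were not tested, with 37, 67, 8, 0, 3, 9 and 70 counts in all 8 libraries together. Before deposition, reads on several listed transcripts had been left uncounted, and these made up 26.8% to 28.8% of uniquely aligned reads. *Rsph14* is listed under 4 transcripts, *Cfap70* and *Tekt1* under 3 each, and *Dnal1* and *Rsph6a* under 2 each. A low count of these genes is therefore not a measurement of their expression. The same applies in part to *Spef2* and *Spag16*, which were tested but are listed under 3 transcripts each. *Dnah7a* and *Spag6* each have a near-identical copy in the mouse genome (*Dnah7b* and *Spag6l*), and their values are uncertain.

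Most axonemal genes had lower mean levels in *Morc2b*-/- testes, but no single gene passed the test. The log2 fold change, *Morc2b*-/- over wild type, was below 0 for 36 of the 40 tested genes (90%), against 49.2% of all 13507 tested genes. Its median was -0.46, against 0.00 over all tested genes. At a Benjamini-Hochberg adjusted p under 0.05 in edgeR's quasi-likelihood test, 0 of the 40 were called, as were 0% of all tested genes. The adjusted p was 0.9998 for each of the 40. At an unadjusted p under 0.05, 7 of the 40 (17.5%) were lower in *Morc2b*-/- testes, against 1.34% of all tested genes, and 0 were higher, against 0.503%. The 7 were *Dnah8*, *Dnah1*, *Dnah7a*, *Zmynd10*, *Ccdc39*, *Cfap46* and *Ccdc108*. DESeq2 and limma-voom also called 0 of the 40, with 8 and 3 lower at an unadjusted p under 0.05, against 1.36% and 1.23% of all tested genes. DESeq2 called 1 gene among all tested genes and limma-voom 0. The values of the genotypes did not overlap for 1 gene, *Dnah8* (2.5%), against 0.881% of all tested genes in that direction, and 0 genes were higher without overlap, against 0.407%.

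**Figure D1:**
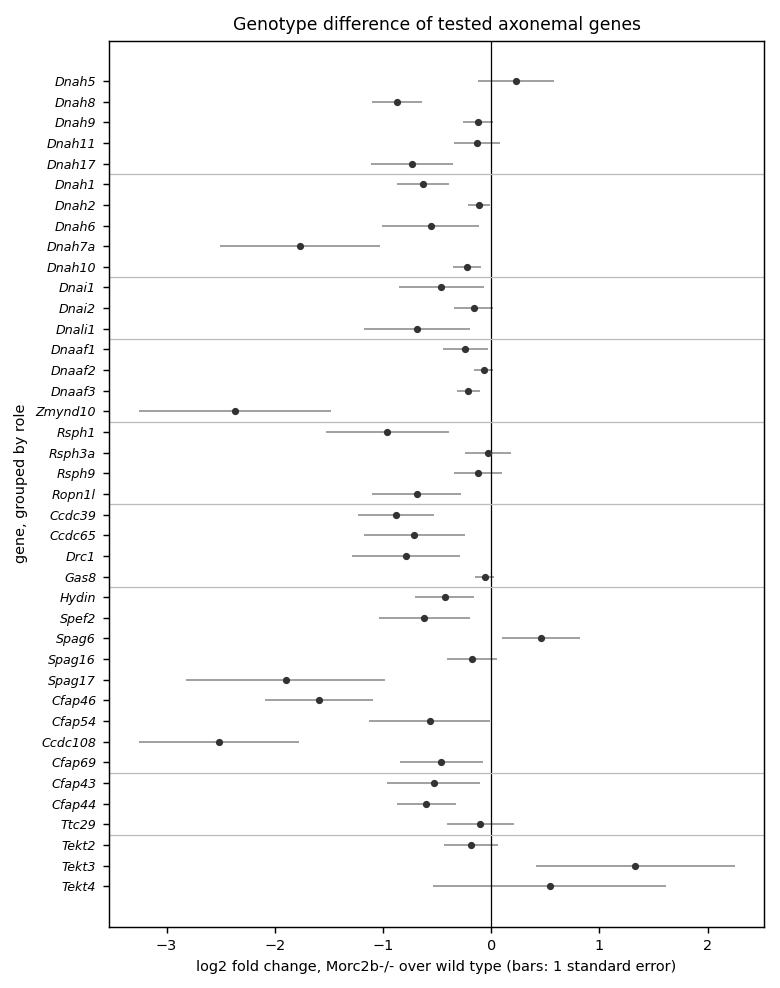
Log2 fold change of the 40 tested axonemal genes, *Morc2b*-/- over wild type, on the x axis, with genes grouped by role on the y axis (points, edgeR estimates from 4 libraries per genotype; bars, 1 standard error). Points of 36 genes lie left of 0, from -2.52 for *Ccdc108*, and the 4 points to the right of 0 are *Dnah5*, *Spag6*, *Tekt3* and *Tekt4*.

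These counts depended on wild type 3 and *Morc2b*-/- 3, the libraries whose *Morc2b* counts are in the reverse order of their labels. Wild type 3 was also the lowest wild type library for 30 of the 40 genes. Leaving it out therefore raises the wild type mean of those genes, whatever its label. With wild type 3 and *Morc2b*-/- 3 both left out, a setting chosen after seeing the data, 21 of the 40 genes were lower at an unadjusted p under 0.05, against 2.55% of all tested genes. At the same time, 20 of the 40 were lower without overlap, against 4.34% of all tested genes, and the median log2 fold change was -0.68. After adjustment 0 of the 40 were called, and the lowest adjusted p among the 40 was 0.340, for *Spag17* (edgeR, 3 libraries per genotype). With wild type 1 and 4 both left out, the libraries with the highest epididymal and the highest pachytene markers, 2 of the 40 were lower at an unadjusted p under 0.05, against 1.09% of all tested genes. In the same setting 1 was higher, against 1.44%, and the median was -0.14.

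The axonemal genes varied more between libraries of the same genotype than most genes did. The median SD of log2 CPM was 0.63 among wild type libraries and 0.48 among *Morc2b*-/- libraries, against 0.19 and 0.17 over all tested genes. The summed level of the 46 genes with counts was 626.6, 687, 422.3 and 1066 CPM in wild type 1 to 4 and 414.5, 473.9, 488.9 and 506.6 CPM in *Morc2b*-/- 1 to 4. The sum in wild type 4 was thus the highest, and the library labelled wild type 3 lay within the range of the *Morc2b*-/- libraries. Of the 40 tested genes, 24 (60%) were highest of all 8 libraries in wild type 4, against 18.6% of all tested genes. Within wild type, 25 (62.5%) were highest in wild type 4, against 31.9%, and 30 (75%) were lowest in wild type 3, against 25.1%. Wild type 4 exceeded wild type 3 by a median of 1.47 on the log2 scale, against 0.00 over all tested genes, and by more than 1 for 23 of the 40 (57.5%), against 4.63%. Within *Morc2b*-/-, 19 of the 40 (47.5%) were highest in replicate 3, against 26.1%, and 9 (22.5%) were highest in replicate 4, against 29%. The lowest value was in *Morc2b*-/- 1 for 16 (40%), against 28.7%. Summed pachytene markers were likewise lowest in wild type 3 and *Morc2b*-/- 1 within their genotypes, and highest in wild type 4 and *Morc2b*-/- 3. Within *Morc2b*-/-, however, the summed axonemal level was highest in replicate 4 and not in replicate 3. The part of pachytene cells in the axonemal values was not tested.

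**Figure D2:**
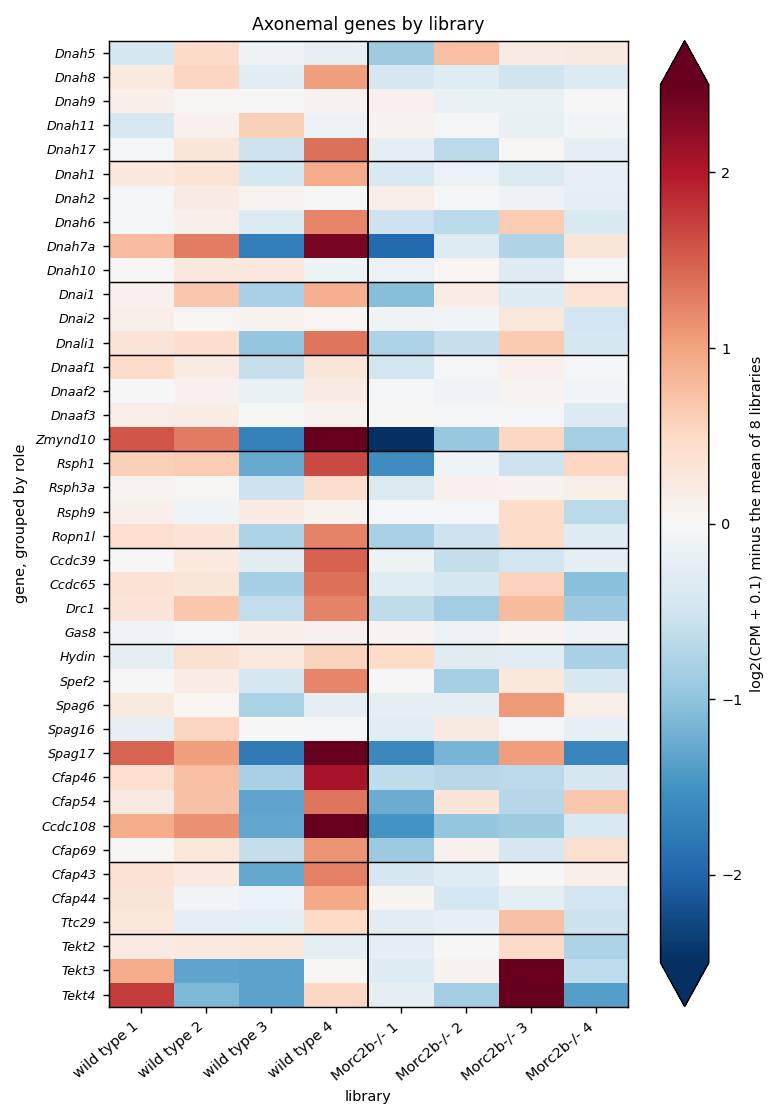
Levels of the 40 tested axonemal genes (rows, grouped by role) in the 8 libraries (columns), as log2(CPM + 0.1) minus the mean of the 8 libraries. The column of wild type 4 is the reddest, with 24 genes at their highest, that of wild type 3 is mostly blue, and *Tekt3* and *Tekt4* are highest in *Morc2b*-/- 3.

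**Figure D3:**
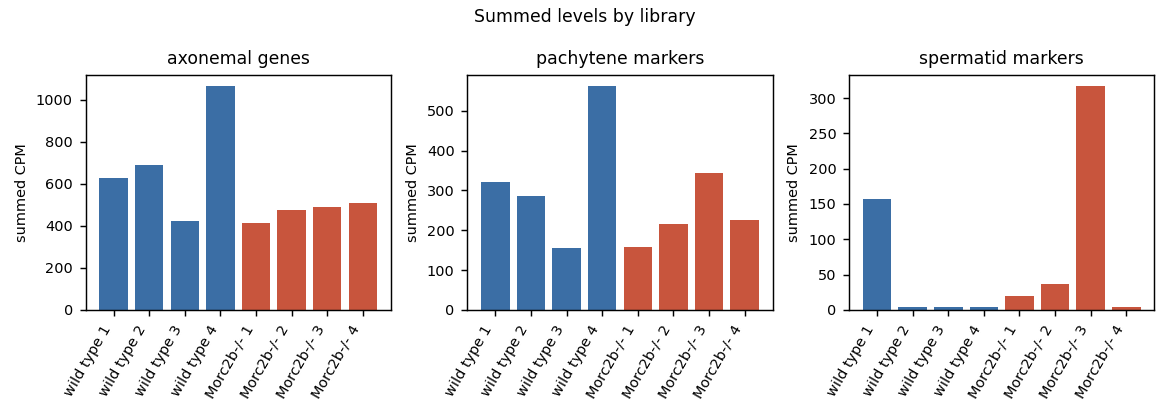
Summed CPM per library (bars, 1 library each; blue, wild type; red, *Morc2b*-/-) of the 46 axonemal genes with counts, the pachytene markers and the spermatid markers. Wild type 4 is highest for the axonemal genes (1066) and the pachytene markers (562.7), and *Morc2b*-/- 3 for the spermatid markers (317.4).

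The promoters of these genes were compared because RFX and MYB factors are known regulators of ciliary and of meiotic genes. The core RFX motif was searched as GTTGCC and the MYB site as CAGTTG, both on either strand, in the RefSeq window of 250 bases before to 50 bases after each start (build GRCm38.p6). The motifs overlap where the sequence reads CAGTTGCC. A window was found for 46 of the 53 genes, and for 27025 genes in all. The RFX motif was present in 18 of the 46 (39.1%), against 14.1% of all genes, and in the 60 bases before the start in 12 (26.1%), against 3.46%. The MYB site was present in 15 of the 46 (32.6%), against 15.4%, and in the 60 bases before the start in 5 (10.9%), against 3.03%. A match is a description of letters and not a bound site. The following windows show RFX motifs (capitals) in a gene with a low unadjusted p, *Cfap46*, in *Hydin* and *Cfap44*, which hold the longer pattern described next, and in a radial spoke gene, *Ropn1l*, beside *Gas8*, whose level hardly varied between libraries. Each is the 60 bases before the start, 5′ to 3′ on the strand of the gene. They lie at chr7:139683816-139683875 (minus strand, *Cfap46*), chr8:110266917-110266976 (plus, *Hydin*), chr16:44394739-44394798 (plus, *Cfap44*), chr15:31453690-31453749 (minus, *Ropn1l*) and chr8:123518775-123518834 (plus, *Gas8*).
Cfap46: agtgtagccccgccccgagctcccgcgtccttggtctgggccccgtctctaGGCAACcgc
Hydin: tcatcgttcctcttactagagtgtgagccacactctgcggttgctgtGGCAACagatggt
Cfap44: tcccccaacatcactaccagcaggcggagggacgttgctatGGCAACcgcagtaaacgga
Ropn1l: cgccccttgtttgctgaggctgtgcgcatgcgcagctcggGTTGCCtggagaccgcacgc
Gas8: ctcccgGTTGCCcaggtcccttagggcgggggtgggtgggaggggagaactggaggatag

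In *Hydin* and *Cfap44* the RFX motif is the right arm of a longer pattern, GTTGC followed 3 bases later by GGCAAC. This pattern was searched on both strands after these windows had been read. It was present in the 300-base windows of 2 of the 46 genes (4.35%), *Hydin* and *Cfap44*, and of 47 of 27025 genes in all (0.174%). Because the pattern was taken from the windows, its presence in *Hydin* and *Cfap44* was fixed in advance, and the shares are no evidence of enrichment. The windows of *Dnai2* and *Tekt2* hold the same arms with a shorter gap, which the search left out. The median log2 fold change was -0.22 for the 11 tested genes with an RFX motif in the 60 bases before the start (-1.59 to 0.46) and -0.46 for the 25 tested genes with a window that lacks it there (-2.37 to 1.33).

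Among the outer arm heavy chains, the motor subunits of the outer dynein arm, *Dnah8* had the clearest difference between genotypes. *Dnah8* (chr17:30761299-31012209, NCBIM37) encodes the outer arm chain used in sperm. It was at 93.8, 115, 66.2 and 163.9 CPM in wild type 1 to 4 and at 58.8, 63.8, 55.6 and 62.6 CPM in *Morc2b*-/- 1 to 4. The groups did not overlap, although the library labelled wild type 3 was only just above the highest *Morc2b*-/- library. Wild type libraries averaged 109.7 ± 41.3 CPM (SD, n = 4) and *Morc2b*-/- libraries 60.2 ± 3.72 CPM (SD, n = 4). The *Dnah8* log2 fold change was -0.87 (standard error 0.23, unadjusted p = 0.00432 and adjusted p = 0.9998 from edgeR), and the exact two-sided permutation test of log2 CPM gave p = 0.0286, the smallest value that 4 against 4 libraries allow. Groups without overlap give this value by construction. The permutation test was run for 8 axonemal genes, 7 of them chosen for a low unadjusted p, so its p is no further evidence of a difference, and it is given unadjusted. *Dnah8*, *Rsph1*, *Zmynd10* and *Ccdc108* are on the study's own list of differentially expressed genes, which was drawn up on these samples, so their direction is not independent evidence. The study made its list with Cuffdiff at an FDR under 0.05, a different test from the edgeR fit used here. It also checked 7 genes of its list by real-time PCR on other testes and reports that all 7 differed at day 12. Those PCR values were not examined here.

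*Dnah17*, the other outer arm chain of sperm, was at 5.56, 7.001, 3.93 and 14.9 CPM in wild type and 4.78, 3.51, 5.81 and 4.81 CPM in *Morc2b*-/- libraries 1 to 4. Its values overlapped, with wild type 4 far above the others (log2 fold change -0.73, standard error 0.38). The 3 outer arm chains of motile cilia in epithelia, *Dnah5*, *Dnah9* and *Dnah11*, did not have this pattern. *Dnah5* was at 1.63, 3.15, 2.03 and 1.95 CPM in wild type and 1.16, 3.86, 2.61 and 2.65 CPM in *Morc2b*-/- libraries 1 to 4. *Dnah9* ranged from 2.71 to 3.00 CPM in wild type and from 2.41 to 2.94 CPM in *Morc2b*-/-. *Dnah11* was highest in wild type 3, at 6.75 CPM, with 3.35 to 4.80 CPM in the other wild type and 3.89 to 4.72 CPM in the *Morc2b*-/- libraries. None of these 3 was highest in wild type 4, and their log2 fold changes were 0.23, -0.12 and -0.13 (standard errors 0.35, 0.14 and 0.21).

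Divided by transcript length, the mean level of *Dnah8* in wild type was 7.51 CPM per kb, followed by *Dnah17* at 0.524, *Dnah11* at 0.336, *Dnah9* at 0.206 and *Dnah5* at 0.140 CPM per kb. *Dnah8* was above the other 4 in every library. The wild type values of *Dnah17* and *Dnah11* overlapped, as did those of *Dnah9* and *Dnah5*. Inner arm chains were in the order *Dnah2* (3.99 CPM per kb), *Dnah1* (2.59), *Dnah10* (0.743) and *Dnah6* (0.0975), of which *Dnah2* and *Dnah1* overlapped in wild type.

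**Figure D4:**
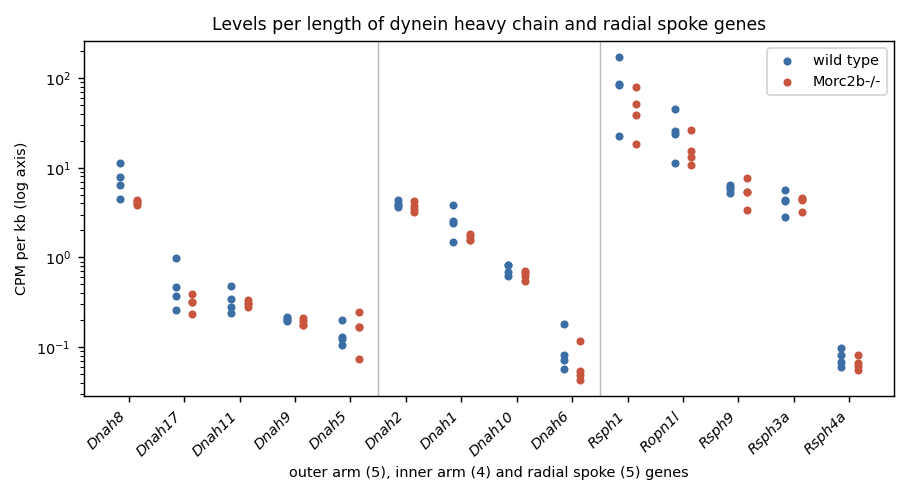
CPM per kb of transcript (log axis) of outer arm heavy chain, inner arm heavy chain and radial spoke genes, from left to right by mean wild type level within each group (points, 1 library each; blue, wild type; red, *Morc2b*-/-). *Dnah8* lies above the other outer arm chains in all 8 libraries, and *Rsph1* (mean 90.9 CPM per kb in wild type) spreads widely within each genotype.

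The inner arm heavy chains drive the inner dynein arms, and the 5 tested had log2 fold changes below 0, with a median of -0.56. *Dnah1* (chr14:32073561-32137082) was at 31.5, 33.1, 19.1 and 49.5 CPM in wild type and 20.03, 23.7, 20.2 and 22.5 CPM in *Morc2b*-/- libraries 1 to 4. Wild type 1, 2 and 4 were above every *Morc2b*-/- library, and the library labelled wild type 3 was below all of them. The log2 fold change was -0.63 (standard error 0.24, unadjusted p = 0.0271 and adjusted p = 0.9998 from edgeR; exact permutation p = 0.1429). *Dnah7a* was at 6.78, 9.68, 1.11 and 20.6 CPM in wild type and 0.937, 3.11, 2.29 and 4.85 CPM in *Morc2b*-/- libraries 1 to 4. Wild type 4 was 18.65 times wild type 3, a wider spread than that between genotypes (log2 fold change -1.77, standard error 0.74, unadjusted p = 0.0402 and adjusted p = 0.9998 from edgeR, exact permutation p = 0.2286). *Dnah2*, the most abundant of the 5 in CPM, ranged from 50.6 to 60.6 CPM in wild type and from 44.2 to 59.0 CPM in *Morc2b*-/- libraries, of which replicates 3 and 4 were below every wild type library (log2 fold change -0.11, standard error 0.10). *Dnah10* and *Dnah6* had log2 fold changes of -0.22 and -0.56 (standard errors 0.13 and 0.45).

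The intermediate chains *Dnai1* and *Dnai2* anchor the outer arm, and *Dnali1* is a light intermediate chain of inner arms. *Dnai1* was at 10.3, 15.4, 5.46 and 17.8 CPM in wild type and 4.52, 11.0, 7.73 and 12.3 CPM in *Morc2b*-/- libraries 1 to 4, with overlap (log2 fold change -0.46, standard error 0.39). *Dnai2* kept to a narrow range, from 2.76 to 3.02 CPM in wild type and 1.89 to 3.26 CPM in *Morc2b*-/-. *Dnali1* ranged from 1.43 to 7.51 CPM in wild type and from 1.65 to 4.58 CPM in *Morc2b*-/-. Its highest value was in wild type 4 and its lowest in wild type 3 (log2 fold change -0.69, standard error 0.49).

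Of the dynein assembly factors, *Zmynd10* behaved differently from the 3 *Dnaaf* genes. *Zmynd10* (chr9:107449639-107453650), a co-chaperone in arm assembly, was at 11.4, 9.42, 1.11 and 29.4 CPM in wild type and 0.452, 1.92, 5.44 and 2.10 CPM in *Morc2b*-/- libraries 1 to 4. Wild type 1, 2 and 4 were above all *Morc2b*-/- libraries and wild type 3 was below 3 of the 4. The mean was 12.8 ± 11.9 CPM (SD, n = 4) against 2.48 ± 2.11 CPM (SD, n = 4), and the log2 fold change was -2.37 (standard error 0.89, unadjusted p = 0.0259 and adjusted p = 0.9998 from edgeR; exact permutation p = 0.1429). Wild type 4 was 26.6 times wild type 3. *Dnaaf2*, the most abundant of the 4 in CPM and a factor of cytoplasmic preassembly, was at 44.5, 47.8, 39.5 and 51.1 CPM in wild type and 43.1, 42.1, 46.4 and 42.1 CPM in *Morc2b*-/- libraries 1 to 4. It moved little between any of the libraries (log2 fold change -0.07, standard error 0.09). *Dnaaf1* and *Dnaaf3*, which act in the same preassembly, had log2 fold changes of -0.24 and -0.21 (standard errors 0.21 and 0.11).

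Radial spoke genes differed among themselves in the same way. *Rsph1* (chr17:31391964-31414301), a spoke head gene, had the highest level per length of the spoke genes. It was at 96.7, 98.9, 26.6 and 200.9 CPM in wild type and 21.7, 59.2, 44.6 and 91.7 CPM in *Morc2b*-/- libraries 1 to 4. Wild type 4 was 7.56 times wild type 3, while the highest *Morc2b*-/- library, replicate 4, was below wild type 1 and 2 by less than the spread within either genotype. The mean was 105.8 ± 71.8 CPM (SD, n = 4) against 54.3 ± 29.3 CPM (SD, n = 4), and the log2 fold change of -0.96 did not pass (standard error 0.57, unadjusted p = 0.123 and adjusted p = 0.9998 from edgeR; exact permutation p = 0.3143). *Ropn1l*, a spoke protein related to the fibrous sheath protein ROPN1, was at 23.4, 21.8, 10.2 and 41.3 CPM in wild type and 9.85, 12.1, 24.2 and 14.0 CPM in *Morc2b*-/- libraries 1 to 4. It was highest in wild type 4 and, within *Morc2b*-/-, in replicate 3 (log2 fold change -0.69, standard error 0.41). *Rsph9*, of the spoke head, and *Rsph3a*, of the stalk, had log2 fold changes of -0.12 and -0.03 (standard errors 0.22 and 0.21). *Rsph4a* and *Rsph6a*, the spoke head proteins of epithelial cilia and of sperm, had 67 and 8 counts in all. *Rsph6a* had 0 counts in 3 of the 4 *Morc2b*-/- libraries and 1 or 2 in each wild type library, too few to set beside each other. Per length, wild type means were 90.9 CPM per kb for *Rsph1*, 26.6 for *Ropn1l*, 5.89 for *Rsph9*, 4.25 for *Rsph3a* and 0.0772 for *Rsph4a*. *Rsph9* and *Rsph3a* overlapped in range, and *Rsph1* in wild type 3 lay within the range of *Ropn1l*.

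**Figure D5:**
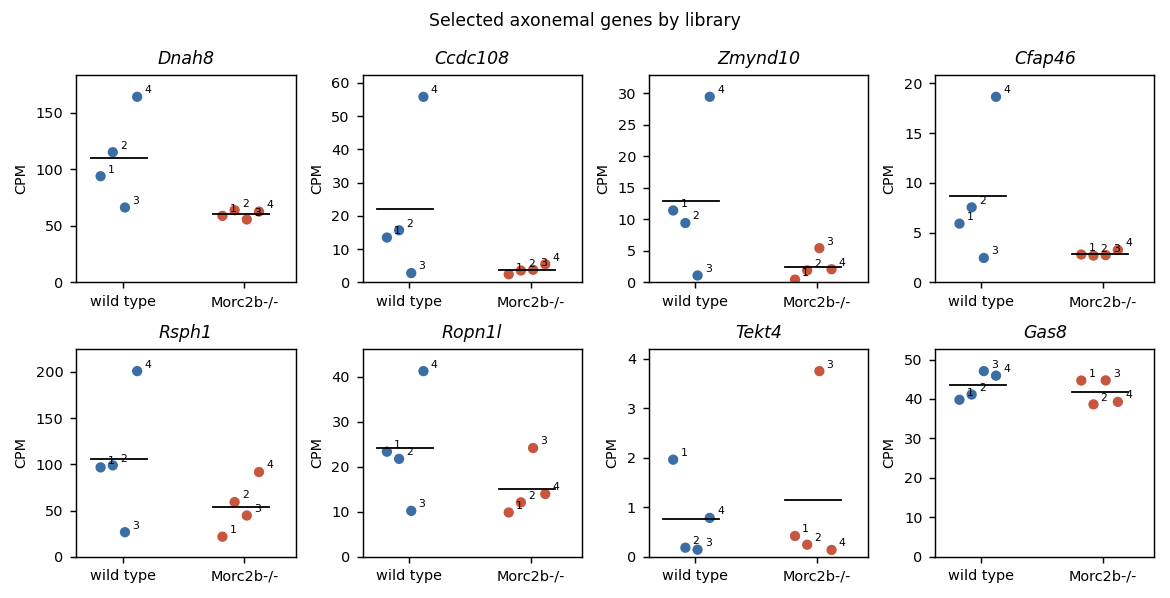
CPM of 8 axonemal genes in each library (points, numbered by replicate; blue, wild type; red, *Morc2b*-/-; line, mean of 4 libraries). For *Dnah8* all *Morc2b*-/- points lie below the wild type points, *Ccdc108*, *Zmynd10*, *Cfap46* and *Rsph1* are highest in wild type 4 and low in wild type 3, *Tekt4* is highest in *Morc2b*-/- 3, and *Gas8* stays between 38.6 and 47.1 CPM.

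*Ccdc39*, which forms the ruler that spaces the complexes along each doublet, was at 24.6, 29.5, 20.6 and 68.7 CPM in wild type and 22.6, 16.3, 17.9 and 21.0 CPM in *Morc2b*-/- libraries 1 to 4. Wild type 4 was far above the next library, and wild type 3 was within the *Morc2b*-/- range. The log2 fold change was -0.88 (standard error 0.35, unadjusted p = 0.0322 and adjusted p = 0.9998 from edgeR; exact permutation p = 0.0857). *Gas8*, *Drc1* and *Ccdc65* belong to the nexin-dynein regulatory complex. *Gas8* was the most abundant tested gene of this group, and it did not share the pattern. It was at 39.8, 41.1, 47.1 and 45.9 CPM in wild type and 44.7, 38.6, 44.7 and 39.3 CPM in *Morc2b*-/- libraries 1 to 4 (log2 fold change -0.06, standard error 0.09). *Drc1* was at 2.40, 3.08, 1.21 and 4.62 CPM in wild type and 1.195, 1.00, 3.35 and 0.962 CPM in *Morc2b*-/- libraries 1 to 4. Replicate 3 was the highest *Morc2b*-/- library for *Drc1*, as for *Ccdc65*, and the genotypes overlapped for both (log2 fold changes -0.79 and -0.71, standard errors 0.50 and 0.47).

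Of the 40 genes, a central pair gene, *Ccdc108*, had the largest difference between genotypes on the log2 scale. Of the 9 tested central pair genes, 8 had log2 fold changes below 0, 7 were highest in wild type 4, and the median was -0.57. *Ccdc108* (also *Cfap65*, chr1:74948645-74982173), whose product is associated with the central pair, was at 13.5, 15.7, 2.82 and 55.8 CPM in wild type and 2.46, 3.59, 3.81 and 5.46 CPM in *Morc2b*-/- libraries 1 to 4. Wild type 3 was the only wild type library within the *Morc2b*-/- range. The means were 21.96 ± 23.3 and 3.83 ± 1.24 CPM (SD, n = 4), and the log2 fold change was -2.52 (standard error 0.74, unadjusted p = 0.00737 and adjusted p = 0.9998 from edgeR; exact permutation p = 0.1143). *Cfap46*, a component of a central pair projection, was at 5.91, 7.55, 2.46 and 18.7 CPM in wild type and 2.81, 2.70, 2.75 and 3.26 CPM in *Morc2b*-/- libraries 1 to 4. Its *Morc2b*-/- libraries were close together, and wild type 3 was again below them (log2 fold change -1.59, standard error 0.50, unadjusted p = 0.0116 and adjusted p = 0.9998 from edgeR; exact permutation p = 0.1429).

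*Spag17*, a large central pair protein, was at 4.82, 3.63, 0.428 and 10.9 CPM in wild type and 0.485, 0.703, 3.61 and 0.481 CPM in *Morc2b*-/- libraries 1 to 4. The values of *Spag17* overlapped through wild type 3 and *Morc2b*-/- 3, which sat with the other genotype (log2 fold change -1.90, standard error 0.92). Without these libraries its log2 fold change was -3.52 (standard error 0.47). *Cfap69*, the most abundant tested central pair gene in CPM, was at 19.7, 23.5, 12.7 and 42.2 CPM in wild type and 10.2, 20.9, 14.5 and 25.8 CPM in *Morc2b*-/- libraries 1 to 4, with overlap. Of the remaining tested central pair genes, *Hydin*, *Spef2*, *Cfap54* and *Spag16* had log2 fold changes of -0.43, -0.62, -0.57 and -0.18. *Spag6* was at 1.83, 1.61, 0.857 and 1.32 CPM in wild type and 1.29, 1.32, 3.38 and 1.75 CPM in *Morc2b*-/- libraries 1 to 4, highest in *Morc2b*-/- 3 (log2 fold change 0.46, standard error 0.36).

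*Cfap43* and *Cfap44* tether inner arms to the doublet, and *Ttc29* is a flagellar protein required for sperm motility. *Cfap43* was at 11.2, 10.3, 3.53 and 21.1 CPM in wild type and 6.46, 7.05, 8.67 and 9.76 CPM in *Morc2b*-/- libraries 1 to 4, with wild type 3 lowest of all 8. *Cfap44* was at 3.92, 2.97, 2.82 and 6.13 CPM in wild type and 3.30, 2.27, 2.66 and 2.23 CPM in *Morc2b*-/- libraries 1 to 4 (log2 fold change -0.60, standard error 0.27, unadjusted p = 0.0524 and adjusted p = 0.9998 from edgeR). *Ttc29* was at 3.38, 2.35, 2.32 and 3.96 CPM in wild type and 2.26, 2.38, 4.67 and 1.89 CPM in *Morc2b*-/- libraries 1 to 4, highest in *Morc2b*-/- 3 (log2 fold change -0.10, standard error 0.31).

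The tektins are filament proteins inside the doublet wall, and 3 of the 5 were tested. *Tekt4* was at 1.96, 0.183, 0.143 and 0.785 CPM in wild type and 0.420, 0.243, 3.75 and 0.137 CPM in *Morc2b*-/- libraries 1 to 4. *Tekt3* was at 0.899, 0.110, 0.107 and 0.440 CPM in wild type and 0.323, 0.459, 3.01 and 0.241 CPM in *Morc2b*-/- libraries 1 to 4. Both were highest in *Morc2b*-/- 3 and next highest in wild type 1, the libraries with the highest spermatid markers. Log2 fold changes were 0.54 for *Tekt4* and 1.33 for *Tekt3* (standard errors 1.08 and 0.92). Without wild type 3 and *Morc2b*-/- 3 they were -1.88 and -0.52, so their direction turned with these libraries. *Tekt4* was at -0.16 in the fit with a replicate block. *Tekt5*, which was not tested, had 26 of its 70 counts in *Morc2b*-/- 3. *Tekt2*, the most abundant tektin in CPM, was at 10.4, 10.7, 11.0 and 7.63 CPM in wild type and 7.72, 9.11, 12.7 and 5.26 CPM in *Morc2b*-/- libraries 1 to 4 (log2 fold change -0.19, standard error 0.25).

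A list drawn up for the sperm flagellum and a list drawn up for epithelial cilia were then set side by side. A place on the sperm list does not show that a gene is used in sperm alone. The sperm list comprised *Dnah8*, *Dnah17*, *Rsph6a*, *Ropn1l*, *Cfap43*, *Cfap44*, *Ttc29*, *Tekt3*, *Tekt4* and *Tekt5*, of which 8 were tested. Their sum was 144.3, 159.9, 89.4 and 252.7 CPM in wild type and 86.4, 92.1, 109.2 and 95.7 CPM in *Morc2b*-/- libraries 1 to 4. *Dnah8* makes up most of this sum, and the library labelled wild type 3 was within the *Morc2b*-/- range. Of the 8, 6 had log2 fold changes below 0 (median -0.56). The epithelial list comprised *Dnah5*, *Dnah9*, *Dnah11* and *Rsph4a*, of which 3 were tested. Their sum ranged from 8.28 to 11.9 CPM in wild type and from 9.05 to 10.9 CPM in *Morc2b*-/- libraries (median log2 fold change -0.12). The difference between these lists was not tested. Markers of multiciliated epithelium summed to between 49.4 and 65.2 CPM in wild type and between 46.9 and 60.6 CPM in *Morc2b*-/- libraries. *Tppp3* alone gave 24.5 to 37.1 CPM of this sum in each library. Counts were present for 11 of the 12 markers, and 6 passed the filter and were tested. *Sec14l3*, *Tmem212*, *Ccdc153*, *Fam183b* and *Scgb1a1* had 0 to 8 counts in each library. *Gmnc*, a switch of the multiciliated programme, had 0 counts in every library. Reads on several listed transcripts were left uncounted, so 0 counts need not mean that a gene is not expressed.

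Regulators of ciliary and flagellar genes were examined from a list of 14, of which 9 were tested. *Crem*, which encodes an activator of genes in the later germ cells, was at 0.599, 0.660, 0.464 and 0.942 CPM in wild type and 0.323, 0.324, 0.200 and 0.275 CPM in *Morc2b*-/- libraries 1 to 4. The groups did not overlap (log2 fold change -1.24, standard error 0.29, unadjusted p = 0.0019 and adjusted p = 0.9998 from edgeR). *Crem* is listed under several transcripts, whose common reads are in no count. *Sox30*, a transcription factor gene active in spermatocytes, was at 24.1, 28.3, 11.7 and 31.7 CPM in wild type and 9.43, 22.4, 15.5 and 24.4 CPM in *Morc2b*-/- libraries 1 to 4, with overlap. *Mybl1*, of the MYB family, ranged from 1.63 to 4.02 CPM in wild type and from 1.62 to 3.57 CPM in *Morc2b*-/-. *Foxj1*, the regulator of motile cilia, ranged from 3.07 to 3.45 CPM and from 2.51 to 3.61 CPM. The log2 fold changes of *Sox30*, *Mybl1* and *Foxj1* were -0.42, -0.02 and -0.11. Of the other tested regulators, *Rfx1*, *Rfx3*, *Mcidas*, *Ccno* and *Foxn4* had log2 fold changes of -0.12, -0.18, -0.07, -0.15 and 0.02. *Rfx2*, *Rfx4*, *Myb* and *Trp73* had counts but too few to be tested. Reads on several listed transcripts are in no count for any gene. A low count of a regulator, *Mybl1* and *Rfx2* among them, therefore does not show that it is little expressed.

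The regulators, the intraflagellar transport genes and other axonemal genes together gave 75 further tested genes. Of these, 67 (89.3%) had log2 fold changes below 0 and the median was -0.15, nearer to 0 than that of the 40. In edgeR, 0 of the 75 were called, 3 were lower at an unadjusted p under 0.05 (4%, against 1.34% of all tested genes) and 1 was higher (1.33%, against 0.503%). The 3 were *Crem*, *Ift172* and *Cfap74*, and the 1 was *Efhc2*. *Ift172*, a subunit of the intraflagellar transport train, was at 107.7, 108.6, 96.5 and 129.4 CPM in wild type and 95.7, 96.9, 91.5 and 85.8 CPM in *Morc2b*-/- libraries 1 to 4 (log2 fold change -0.26, standard error 0.09, unadjusted p = 0.0178). *Dync2h1*, the heavy chain of the motor for retrograde transport, followed (log2 fold change -0.25, standard error 0.12, unadjusted p = 0.0594). *Cfap74* and *Efhc2* had log2 fold changes of -0.67 and 0.28 (standard errors 0.26 and 0.12, unadjusted p = 0.0309 and 0.0418). *Piwil1*, a pachytene marker that encodes a piRNA-binding protein, was at 36.2, 46.3, 16.6 and 132.8 CPM in wild type and 15.5, 14.8, 14.7 and 15.8 CPM in *Morc2b*-/- libraries 1 to 4. Other pachytene markers spread more widely among *Morc2b*-/- libraries, such as *Ldhc*, from 7.20 to 103.1 CPM, and *Adam2*, from 0.582 to 8.10 CPM.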

How the data were processed

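RNA-seq libraries of 4 wild type and 4 *Morc2b*-/- testis pairs were compared. The authors trimmed reads and mapped them to mm9 (Tophat). The deposited values are unnormalized counts for each RefSeq transcript. The labels name Cufflinks and Cuffdiff for the study's own comparison. The counting program and its strand setting are not given in the sources used here, so overlapping antisense genes cannot be told apart. Of 35819 transcripts, 35522 matched a symbol. The other 297, with 0.484% of counts, were kept as separate units. Counts were summed per symbol and tested in edgeR 4.0.16 (R 4.3.3; TMM, filterByExpr, glmQLFTest, genotype only, Benjamini-Hochberg adjustment over 13507 genes). CPM are TMM-scaled. Lengths are those of the longest annotated NCBIM37 transcript, which also gave gene coordinates. Promoters are RefSeq windows. The procedure was tested on simulated data. The smallest chi-square per degree of freedom between any 2 libraries was 6.86, so no library was counted as a duplicate.

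The members and lists were chosen with earlier results of these data known. Full statistics are given for genes without overlap, with an unadjusted p under 0.05 or on the study's list. Values per library are also given for the most abundant tested gene of each role and for the sperm and epithelial lists. Exact two-sided permutation tests used log2 CPM with a prior count of 2 over 70 arrangements. Protein sequences were not used here. Alternatives were DESeq2 1.42.0, limma-voom (limma 3.58.1), RLE scaling, other count filters, the top transcript per gene, a replicate block and leaving libraries out. Leaving out wild type 3 with *Morc2b*-/- 3, or wild type 1 with *Morc2b*-/- 3, was added after seeing the data. Figures were drawn with matplotlib 3.10.9.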

Additional observations from a re-analysis of the deposited data

Results flagged for a closer look

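Log2 CPM values of the 40 tested genes were examined for a library far from the other 3 of its genotype. Dixon's ratio of the gap to the range was used, at its 95% critical value. The values below are printed in CPM. Ratios on the CPM scale were not examined, so a library can stand apart in CPM without being listed here. Of the 80 groups examined, 4 had such a library, where chance gives about 1 in 20. *Dnaaf3* was at 7.387 CPM in *Morc2b*-/- 4, against 9.13 to 9.30 CPM in the other *Morc2b*-/- libraries. *Rsph3a* was at 6.977 CPM in *Morc2b*-/- 1, against 9.59 to 10.2 CPM in the others. *Drc1* was at 3.349 CPM in *Morc2b*-/- 3, against 0.962 to 1.195 CPM in the others. *Tekt2* was at 7.632 CPM in wild type 4, against 10.4 to 11.0 CPM in the other wild type libraries, and was thus low in the library in which most axonemal genes were highest.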

How the results depend on the processing

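Each result was recomputed with 1 choice changed at a time. In all settings 0 axonemal genes were called, and no log2 fold change of the 8 genes with full statistics changed sign. Of the 40 genes, 7 were lower at an unadjusted p under 0.05, against 1.34% of all tested genes. In limma-voom the number was 3, against 1.23% of all tested genes. It was 2 without wild type 1 and 4, against 1.09%, where 1 was higher, against 1.44%. It was 21 without wild type 3 and *Morc2b*-/- 3, against 2.55%. With 1 library left out the number was 4 to 16. It was 16 without wild type 3, against 2.56% of all tested genes. It was 4 without wild type 4, against 1.51%, and 4 without *Morc2b*-/- 2, against 0.929%. Genes lower without overlap, 1 in the full set, numbered 1 to 12 with 1 library left out (12 without wild type 3, 5 without *Morc2b*-/- 1, 4 without *Morc2b*-/- 3, against 2.68%, 2.7% and 1.59% of all tested genes). They numbered 3 without wild type 1 and 4, against 4.92% (where 1 was higher without overlap, against 5.61%), 20 without wild type 3 and *Morc2b*-/- 3, against 4.34%, and 5 of the 38 then tested without wild type 1 and *Morc2b*-/- 3, against 2.81%. With 1 library left out, the median log2 fold change ranged from -0.69 without wild type 3 to -0.22 without wild type 4, and it was -0.14 without wild type 1 and 4. The cause of these shifts was not tested.

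Of the 75 further pathway genes, 3 were lower at an unadjusted p under 0.05, against 1.34% of all tested genes. In DESeq2 the number was 6, against 1.36%. It was 22 without wild type 3 and *Morc2b*-/- 3, against 2.55%. It was 8 without wild type 1 and *Morc2b*-/- 3, against 1.11%. With 1 library left out the number was 2 to 13. It was 13 without wild type 3, 9 without *Morc2b*-/- 3 and 5 without wild type 1, against 2.56%, 1.44% and 1.43% of all tested genes. The number higher was 1 in the full set, against 0.503% of all tested genes. With 1 library left out it was 0 to 1, against 0.396% to 1.9%. In the settings that left out 2 it was 0, against 0.502% to 1.44%.

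The replicate numbers are shared by the genotypes, but nothing states what they mark, and deviations of same-numbered libraries correlated at -0.156, 0.245, -0.322 and 0.453. Pairing was therefore not used. With the replicate number as a block, 5 of the 40 genes and 6 of the 75 were lower at an unadjusted p under 0.05. The share of all tested genes was then 2.22%, and 0 genes were called. Overlap between genotypes and the library with the highest value do not depend on DESeq2, limma-voom or the block, and the count of genes highest in wild type 4 has no value where that library is left out. Depth limits the genes with few counts, such as *Rsph4a* with 67 in all, which did not pass the filter.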
